A study of Mus musculus with 2 samples.

Results

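The genes described here are 39 genes of the actin cytoskeleton, together with the transcription factor SRF that controls many of them, in cultured mouse embryonic endothelial cells with and without Cre-mediated deletion of Snail1. The members were chosen by name, as listed genes with a probe set that carries their symbol alone, and smooth muscle contractile genes were kept apart as a comparison. Of the 39 genes, 38 had such a probe set among 18193 genes on the array, and 37 lay above a filter level, a log2 value of 3.97, that left 12874 genes in all. Rock2, a kinase, had no probe set of its own symbol and was not analysed here. Fhl3, a LIM domain protein, did not reach the filter level on either array, at a log2 value of 3.81 in WT cells and 3.90 in Snail1 KO cells.

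Actin monomers assemble into filaments that crosslinkers, tropomyosins and non-muscle myosin turn into contractile bundles, anchored at focal adhesions and cell junctions. SRF binds a DNA element called the CArG box, and its cofactors of the MRTF family are held inactive by unpolymerised actin, so that filament assembly is coupled to transcription of actin and actin-binding genes. In endothelium this system is known for its part in cell shape, junction tension and vessel sprouting.

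Both groups were endothelial cells cultured from C57/BL6 embryos at E10.5, embryonic day 10.5, that carried floxed Snail1 alleles. The WT cells had received an adenovirus with β-galactosidase, and the Snail1 KO cells one with Cre. Each group was 1 array, so every difference below sets Snail1 KO against WT in a single pair (Snail1 KO minus WT) and none could be tested. Loss of Snail1 cannot be told apart from effects of Cre or of a difference between the viruses. No array held Cre-treated cells without floxed Snail1. In bulk RNA, fewer cells of a type and less RNA per cell also cannot be told apart.

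Snai1, the targeted gene, stood at 5.33 on the WT array and 3.59 on the other, 3.35-fold lower and ending under the filter level, where a fold is of uncertain size. Which exons are floxed is not stated in the labels, so whether its probes lie in the deleted part, and hence whether they check the deletion, is not known. All 8 endothelial markers examined were above the filter level on both arrays, between 9.18 and 13.36 on the WT array and between 9.52 and 12.96 on the other. Of these, 6 were higher in Snail1 KO and 2 lower, with a median of 0.26 log2 units and a summed log2 level of 86.1 in WT and 88.2 in Snail1 KO. The junction gene Cldn5 was 2.11-fold higher and the receptor Tek 1.53-fold, Kdr, Tie1, Cdh5 and Pecam1 differed by 0.49, 0.40, 0.12 and 0.03, and Emcn and Erg by -0.40 and -0.25. The part of this shift in the members' differences was not tested. Of 14 leukocyte markers, 6 reached the filter level on neither array, Ptprc, Tyrobp, Aif1, Itgam, Rac2 and Was, Adgre1 failed it on the mean of both, and the summed log2 level of the list was 67.2 in WT and 65.8 in Snail1 KO. Of 10 fibroblast and mural markers, Pdgfra, Lum and Rgs5 reached it on neither, and the summed log2 level was 56.5 and 56.2. The 6 analysed markers of this list were unequal in brightness. Thy1 (WT 11.43, Snail1 KO 11.37) and Dcn (WT 9.45, Snail1 KO 9.62) lay within the range of the endothelial markers. Col1a2 was dimmer (WT 6.95, Snail1 KO 7.26), and Cspg4, Col1a1 and Pdgfrb lay between 4.05 and 5.14 over both arrays.

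Most actin and SRF-linked genes differed little between the arrays. Of the 37 analysed members, 31 lay within 1.5-fold, 6 were lower in Snail1 KO by 1.5-fold or more, and 0 were at least 1.5-fold higher. The 6 were Coro1a, Fhl2, Pdlim5, Zyx, Vasp and Flna, and of these Coro1a and Fhl2 were at least 2-fold lower. Over all 12874 analysed genes, 6.08% were at least 1.5-fold lower and 5.06% at least 1.5-fold higher, while 1.84% were at least 2-fold lower and 0.971% at least 2-fold higher. The members' share at 1.5-fold lower was 16.2%, and at 2-fold lower 5.41%. The members were chosen with earlier results of these data known, so their shares are not independent of the choice. Among the 3454 analysed genes with a mean log2 value above 9, a level chosen after the data were seen because most members lie above it, 5.59% were at least 1.5-fold lower, against 4 of the 33 members above it, or 12.1%.

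The sign of the difference was negative in 26 of the 37 members and positive in 11, with a median of -0.10 log2 units. Over all analysed genes 50.9% were lower and the median was -0.0083. The middle 50% of the members spanned 0.32 log2 units, against 0.43 over all analysed genes. As a yardstick, further probe sets of a gene differed from its brightest with an SD of 0.40 log2 units. Of the 27 members with several probe sets above the filter level, 9 had all of them lower, 3 had all of them higher and 15 had both signs. The same counts were not made over all analysed genes, so whether the members stand apart in this is not known.

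**Figure D1:**
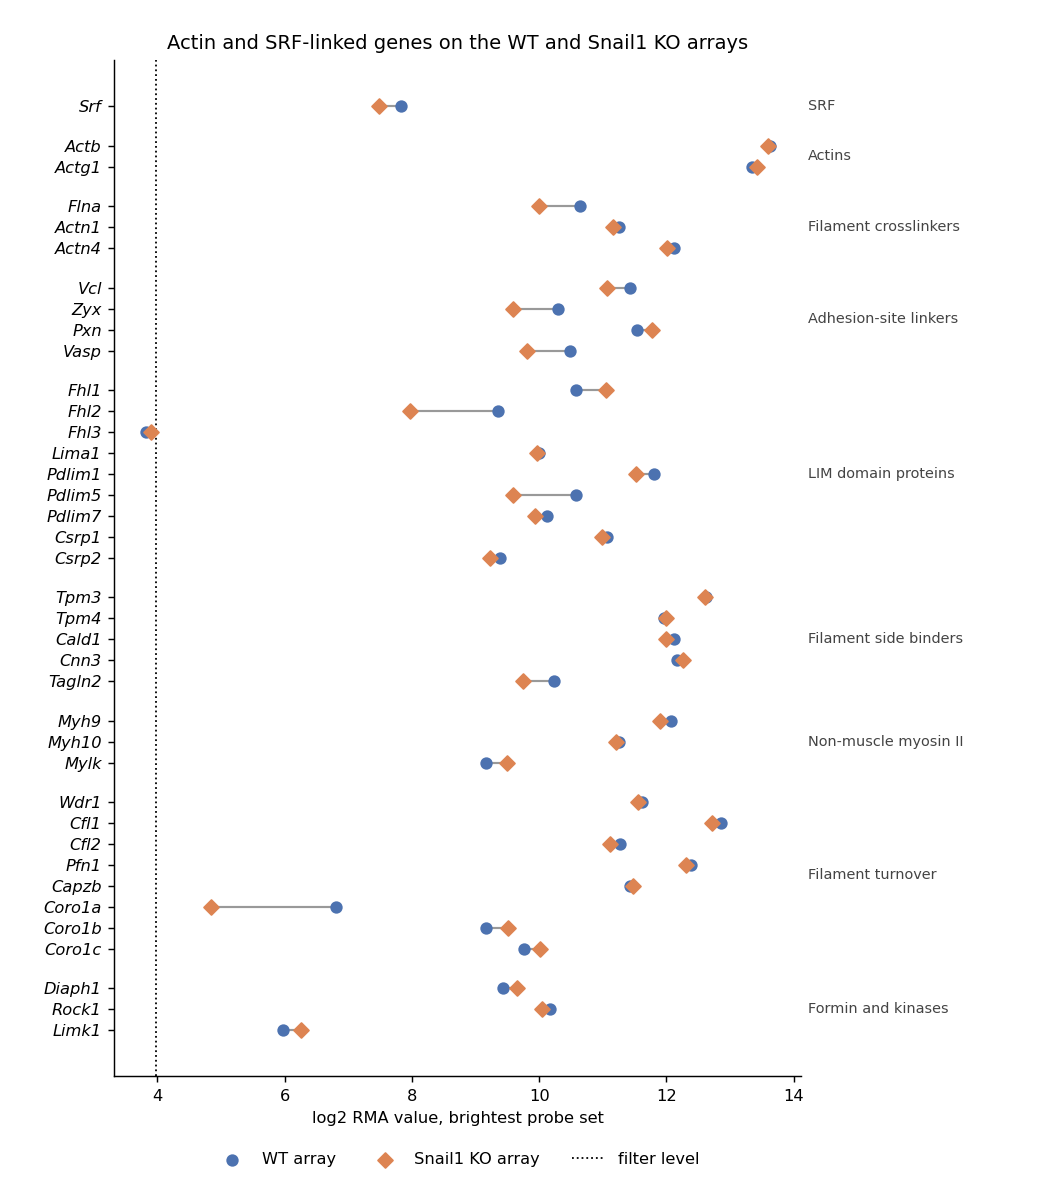
Log2 RMA value of the brightest probe set of each of 38 genes on the WT array (circles) and the Snail1 KO array (diamonds), grouped by role, with a line joining the pair and the filter level dotted. Long lines to the left are seen for Coro1a, Fhl2 and Pdlim5, while both actins and the tropomyosins nearly coincide.

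Srf itself was slightly lower in both of its probe sets. The brighter probe set gave 7.83 on the WT array and 7.48 on the Snail1 KO array, a log2 difference of -0.35. The other gave 7.60 and 7.18, a difference of -0.43. Both probe sets lay above the filter level on each array, and neither differed by 1.5-fold.

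Among the cofactors of SRF, which were named here for their role after their values had been seen, the brightest probe sets of the analysed genes all lay within 1.5-fold. Mrtfa, an actin-sensing coactivator, differed by -0.08 and its relative Mrtfb by 0.04. Of the ternary complex factors, which bring SRF under control of ERK signalling, Elk1 differed by -0.09, Elk4 by 0.29 and Elk3 by 0.41. Their other analysed probe sets differed in size or sign: that of Elk1 gave 0.62, those of Elk4 -0.37 and -0.21, and those of Elk3 0.47, 0.83 and 0.13, so that 1 of Elk1 and 1 of Elk3 were past 1.5-fold higher. Myocd, the cofactor of muscle cells, reached the filter level on neither array, at 3.32 and 3.55.

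To see which members carry the DNA element of SRF close to their start, RefSeq promoter windows of build GRCm38.p6 were searched from 250 bases before to 50 bases after each annotated start. The table held a window for 33 of the 39 members. Actb, Coro1b, Csrp2, Diaph1, Pxn and Rock1 had none, so they were not searched. An exact CArG box, searched on both strands, was found in 6 of the 33 genes, Srf, Actg1, Vcl, Lima1, Fhl1 and Fhl2, which is 18.2%, against 1.81% of the 27025 genes with a window. The members were picked in part as SRF-linked genes, so their share is not independent of the choice. With up to 1 mismatch allowed, 12 of the 33 genes, or 36.4%, had a box, against 23.8% of all genes.

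The stretches around these boxes are shown because they hold the letters that matched the search. A match is a description of the sequence, and binding of SRF was not measured here. Each runs 5′ to 3′ on the strand of the gene, ends before the annotated start, and has the box in capitals. The stretch of Srf is on the minus strand at chr17:46556195-46556274 and holds 2 boxes, which begin 82 and 62 bases before the start. That of Actg1 is on the minus strand at chr11:120348556-120348615, that of Vcl on the plus strand at chr14:20929148-20929200 and that of Lima1 on the minus strand at chr15:99820167-99820226. That of Fhl1 is on the plus strand at chrX:56779551-56779610. Fhl2 has a box before each of 2 annotated starts, both on the minus strand, at chr1:43163963-43164022 and at chr1:43196828-43196887.
Srf: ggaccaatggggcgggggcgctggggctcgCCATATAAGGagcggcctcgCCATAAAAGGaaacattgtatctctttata
Actg1: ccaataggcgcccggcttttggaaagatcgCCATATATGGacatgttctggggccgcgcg
Vcl: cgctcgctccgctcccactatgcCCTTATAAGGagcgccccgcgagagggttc
Lima1: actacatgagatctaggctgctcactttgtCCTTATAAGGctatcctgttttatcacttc
Fhl1: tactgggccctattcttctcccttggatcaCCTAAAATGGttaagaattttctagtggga
Fhl2, downstream start: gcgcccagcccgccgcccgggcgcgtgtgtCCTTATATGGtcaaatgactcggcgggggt
Fhl2, upstream start: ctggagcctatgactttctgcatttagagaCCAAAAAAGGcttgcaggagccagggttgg

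The members with a box did not share a direction or size of difference. Fhl2 differed by -1.38, Vcl by -0.37, Srf by -0.35, Lima1 by -0.02, Actg1 by 0.08 and Fhl1 by 0.47. Their median was -0.19, with 4 lower and 2 higher, and that of the 25 analysed members whose windows had no exact box was -0.11, with 19 lower and 6 higher. Vcl and Lima1 hold the same box letters, and they differed by -0.37 and -0.02.

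The E-box CAGGTG, a sequence that Snail family repressors are known to bind, was searched on both strands of the same windows. It was found in 4 of the 33 members, Actn4, Csrp1, Limk1 and Myh10, or 12.1%, against 22.6% of all genes with a window. These 4 genes differed by -0.11 to 0.28 log2 units, and none of the 6 members that were at least 1.5-fold lower was among them. With only 4 genes holding the E-box, that absence carries little information about the 6. No member had both an exact CArG box and this E-box, which says little where 6 and 4 of 33 genes hold them.

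**Figure D2:**
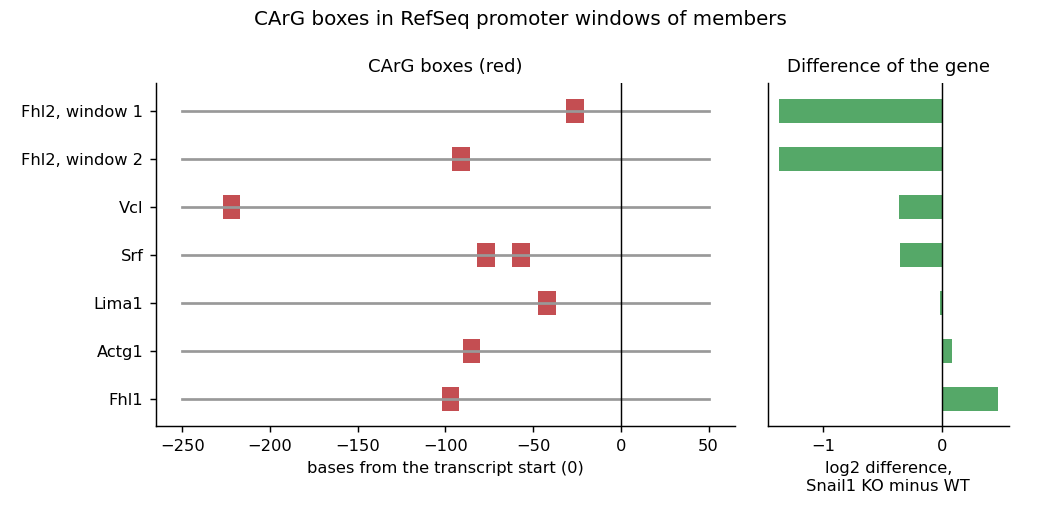
Left, position of each exact CArG box (red) in the promoter windows of 6 members, in bases from the annotated transcript start, with a window for each of 2 starts of Fhl2. Right, the log2 difference of the gene, Snail1 KO minus WT, which ranges from -1.38 for Fhl2 to 0.47 for Fhl1.

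The cytoplasmic actins, the building blocks of the filament, were nearly equal on both arrays. Actb, which encodes β-actin, stood at 13.62 on the WT array and 13.59 on the Snail1 KO array, a difference of -0.03, and a second probe set gave 12.07 and 12.19. The array's own control probe sets for β-actin, at the 3′ end, the middle and the 5′ end of the transcript, differed by -0.05, -0.10 and -0.09. Actg1, which encodes γ-actin, stood at 13.35 and 13.43. Actin genes are close copies of each other, and the single Actg1 probe set is of a kind that can bind transcripts of several genes.

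Of the 3 filament crosslinkers, Flna was lower by more than 1.5-fold but less than 2-fold, and the other 2 were close to equal in their brightest probe sets. Flna, filamin A, which joins filaments into a network and anchors membrane receptors, stood at 10.64 on the WT array and lower by 0.63 log2 units on the other, a 1.55-fold difference in its only probe set. The α-actinins, which bundle filaments, differed less in their brightest probe sets. Actn1 differed by -0.10 there and by -0.05 and -0.61 in its other probe sets, and Actn4 by -0.11. As low a difference as in the brightest probe set was found in 38.0% of analysed genes for Actn1 and 37.0% for Actn4.

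Of the adhesion-site proteins, Zyx, Vasp and Vcl were lower and Pxn was higher, with a median of -0.52. Zyx encodes zyxin, which is recruited to filaments under tension, and it stood at 10.30 and 9.58, 1.64-fold lower, with a dimmer probe set at -0.36. Vasp, a filament elongation factor that zyxin binds, stood at 10.49 and 9.81, 1.60-fold lower in its only probe set. Both were therefore past 1.5-fold, while the remaining members of the group were not.

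Vcl, vinculin, which couples talin to actin, stood at 11.43 in WT and 11.07 in Snail1 KO, a difference of -0.37, and its dimmer probe set differed by 0.33. Pxn, the adhesion scaffold paxillin, was slightly higher, at 11.53 and 11.77, with differences of 0.12 and -0.00 in its other probe sets.

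After that of Coro1a, described with the coronins, the largest difference was found among the LIM domain proteins. Fhl2, a LIM-only protein that associates with integrins and with SRF, stood at 9.35 on the WT array and at 7.98 after Cre, 2.59-fold lower. Only 0.955% of analysed genes had as low a difference. It was measured by a single probe set, which the array design marks as shared by transcripts of 1 gene. Fhl1, its close relative, went the other way, at 10.57 and 11.04, which is 1.39-fold higher and the largest positive difference among the members' brightest probe sets.

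Pdlim5, which encodes the PDZ and LIM protein ENH that binds α-actinin and protein kinase C, was lower in all 7 of its probe sets. Its brightest stood at 10.58 in WT and 9.59 in Snail1 KO, a log2 difference of -0.99 and so just short of 2-fold. The further probe sets above the filter level differed by -0.50, -0.69, -1.01, -1.54 and -1.94, and that below it by -0.73. No other member had as many probe sets of the same sign.

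The other LIM proteins were close to equal. Pdlim1 differed by -0.28 and Pdlim7 by -0.19, both PDZ and LIM proteins of stress fibres. The muscle LIM relatives Csrp1 and Csrp2 differed by -0.08 and -0.16. Lima1, the filament stabiliser EPLIN, gave -0.02 in the brightest probe set, and others ranged from -0.64, in one below the filter level, to 0.26.

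**Figure D3:**
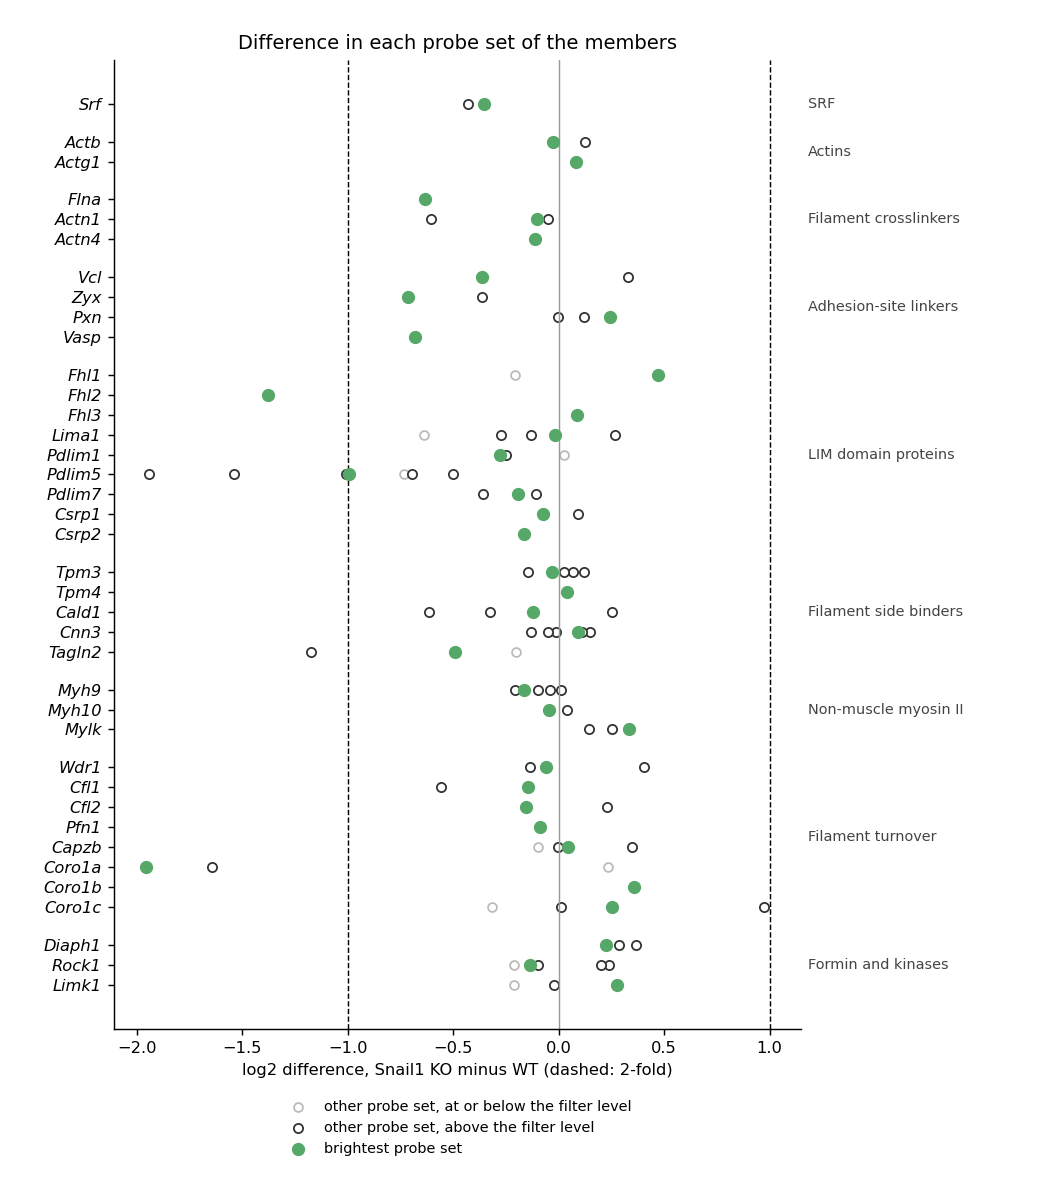
Log2 difference, Snail1 KO minus WT, of every probe set of 38 genes: the brightest (green), others above the filter level (black rings) and others below it (grey rings), with 2-fold dashed. All 7 probe sets of Pdlim5 and both brighter ones of Coro1a lie to the left of zero, while 15 genes have analysed probe sets on both sides.

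Transcripts of proteins that lie along the filament were mostly close to equal. Tpm3 and Tpm4, non-muscle tropomyosins that set which other proteins reach the filament, stood at 12.63 and 11.96 in WT and at 12.60 and 12.00 in Snail1 KO. Cald1, caldesmon, an inhibitor of actomyosin, gave -0.12 in the brightest probe set, and -0.61 and -0.32 in the next brightest. Cnn3, the non-muscle calponin, differed by 0.09, with its 6 probe sets between -0.13 and 0.15.

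Tagln2, the non-muscle relative of the smooth muscle protein transgelin, stood apart from these. Its brightest probe set went from 10.24 to 9.74, a difference of -0.49. Another of nearly the same level went from 10.29 to 9.11, which is 2.26-fold lower. The 2 probe sets therefore agree in direction and place Tagln2 on different sides of 2-fold.

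The non-muscle myosin II genes differed by less than 1.5-fold. The heavy chain Myh9 stood at 12.07 and 11.90 and the heavy chain Myh10 at 11.25 and 11.20. Mylk, the myosin light chain kinase that switches on contraction, was higher in all 3 of its probe sets, by 0.33, 0.25 and 0.14 log2 units.

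Genes of filament turnover were close to equal, apart from Coro1a. The severing protein Cfl1, cofilin, differed by -0.15 and Cfl2 by -0.16, although a dimmer Cfl1 probe set differed by -0.56. Wdr1, a helper of cofilin, differed by -0.06, the monomer-binding protein Pfn1 by -0.09 and the capping protein subunit Capzb by 0.05. A dimmer probe set gave 0.41 in Wdr1 and 0.23 in Cfl2, the opposite sign, while another of each was lower. Further analysed Capzb probe sets gave -0.00 and 0.35.

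Coro1a, the coronin of blood cells, showed the largest difference of any member. It stood at 6.80 on the WT array and 4.84 on the other, 3.88-fold lower, and 0.451% of analysed genes had as low a difference. Its other probe set above the filter level went from 5.23 to 3.59, 3.12-fold lower and ending under the filter level, and a probe set below the filter level differed by 0.23. The coronins expressed more widely across tissues were slightly higher instead. Coro1b stood at 9.16 and 9.51, and Coro1c at 9.76 and 10.01, with differences of 0.97 and 0.01 in its other analysed probe sets and -0.32 in one below the filter level.

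Because Coro1a is best known from leukocytes, the leukocyte markers are set beside it. Lcp1, the leukocyte actin bundler plastin, was also lower, at 7.51 and 6.21, 2.47-fold. Ptprc, which encodes CD45, did not reach the filter level on either array, at 2.96 and 3.29, and the other analysed markers differed little, Csf1r by -0.25, Cd53 by -0.13, Cd68 by -0.08, Vav1 by 0.07, Cd14 by 0.17 and Laptm5 by 0.18. Of the 14 markers, Lcp1 was the only one at least 2-fold lower. Their part in the Coro1a difference was not tested. Without Coro1a the members' median was -0.0953, against -0.1035 with it, and 5 of 36 members were at least 1.5-fold lower.

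The formin and kinases that drive assembly of filaments and bundles differed by less than 1.5-fold. Diaph1, a formin that elongates filaments, was higher in all 3 probe sets, by 0.22 in the brightest, from 9.43 to 9.65. The kinase Rock1 stood at 10.17 and 10.04, and Limk1, which inactivates cofilin, at 5.98 and 6.25. Further analysed probe sets of Rock1 differed by -0.10, 0.24 and 0.20, and that of Limk1 by -0.02, so both genes had both signs.

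**Figure D4:**
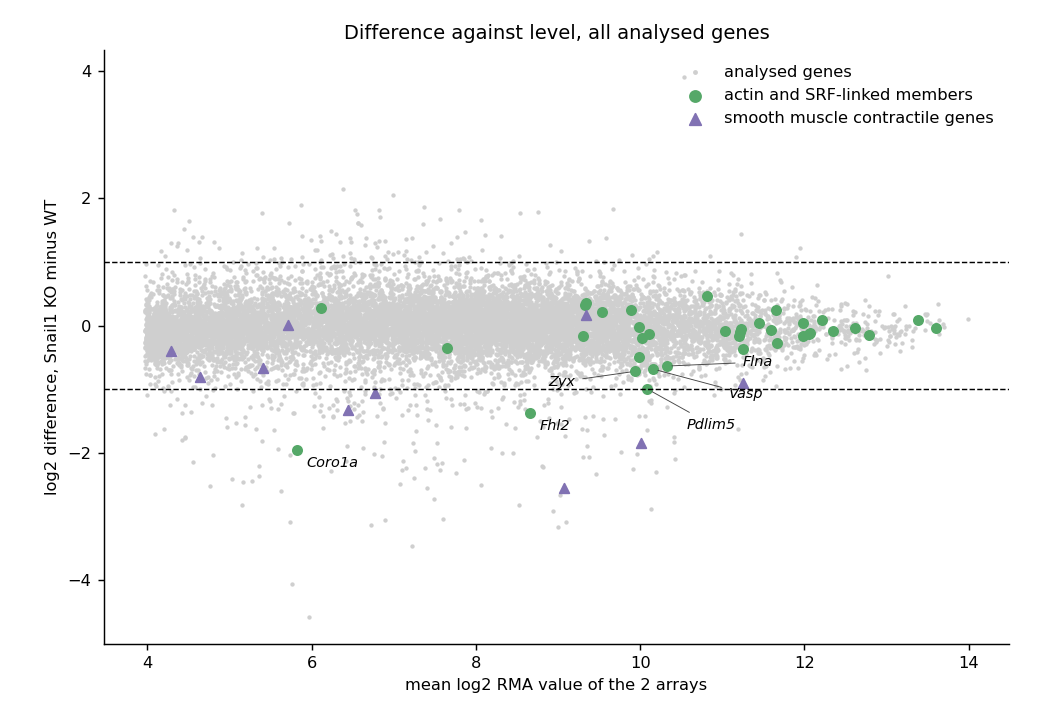
Log2 difference, Snail1 KO minus WT, against the mean log2 value of the 2 arrays for 12874 analysed genes (grey), with the 37 analysed members (green) and 10 smooth muscle contractile genes (triangles), and 2-fold dashed. The 6 members that were at least 1.5-fold lower are named, and no member lies above the upper dashed line.

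The contractile genes of smooth muscle, also known targets of SRF, had larger differences than the members. Of 11 genes, 10 were analysed, 8 of these were lower, and 4 were at least 2-fold lower, against 2 of 37 members. The median was -0.86, against -0.10 for the members. Tagln differed by -2.54, Acta2 by -1.85, Myl9 by -1.33 and Tpm2 by -1.05, whereas Smtn and Des differed by 0.18 and 0.01. By the brightest probe sets the related pairs had unequal differences: Tagln against Tagln2, -2.54 and -0.49, and Acta2 against Actb, -1.85 and -0.03. The Tagln2 probe set of nearly the same level differed by -1.18. The Acta2 probe set is of a kind that can bind transcripts of several genes. Other Acta2 probe sets, all under the filter level, differed by -0.36 and 0.20. The difference between the lists was not tested. Beside it, the mural marker Myh11, which is also in the contractile list, stood at 4.16 and 3.25, with a mean under the filter level, and the mural receptor Pdgfrb at 4.45 and 4.05. Of the 6 analysed fibroblast and mural markers, 4 were higher and 2 lower, with a median of 0.11. Col1a2 differed by 0.31, Dcn by 0.17, Col1a1 by 0.12 and Cspg4 by 0.10, while Thy1 differed by -0.06. Of the endothelial markers, 6 of 8 were higher, as given above. The part of these markers in the contractile differences was likewise not tested.

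A wider set of 60 actin and SRF pathway genes, of which 55 were analysed, had a median of 0.030, with 24 lower and 31 higher. By the brightest probe set, a 2-fold difference was found in Palld alone, the crosslinker palladin, which was 2.10-fold lower at 10.29 and 9.22. Its next brightest probe set was 2.39-fold lower. Dimmer probe sets of Msn and Ppp1r12a, also above the filter level, were 2.52-fold and 2.18-fold higher, while the brightest of these genes differed by -0.04 and 0.16. Filip1l differed by -0.77, and Coro2b, a further coronin, by 0.79. Of 18 analysed bundling, crosslinking and adhesion genes in this set, 13 were lower, with a median of -0.30, while the 5 SRF cofactors had a median of 0.04.

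Genes for branched filament assembly had a median of -0.021 over 15 analysed genes, with 8 lower and 7 higher. Cyfip2, a subunit of the WAVE complex, was 4.14-fold higher, from 5.97 to 8.02, and 0.0233% of analysed genes had as high a difference. Its other analysed probe sets were 8.43-fold higher, from 3.96, under the filter level, to 7.03, and 1.38-fold higher. The next largest differences were those of Arpc4 and Abi1, at 0.43 and 0.42. The 6 analysed Arp2/3 subunits had a median of -0.05.

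**Figure D5:**
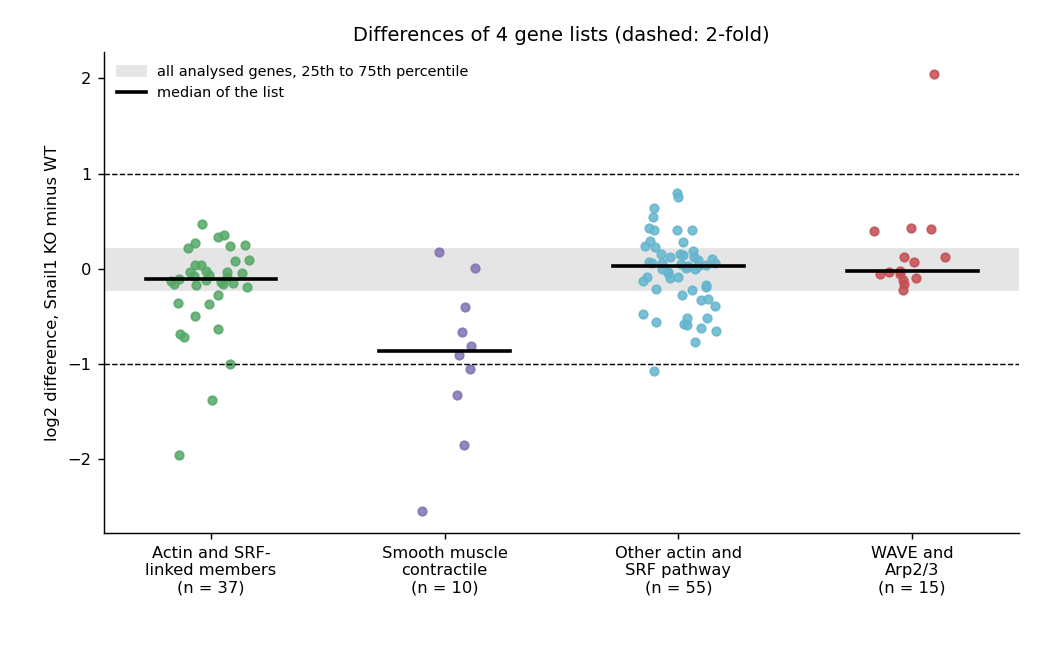
Log2 difference, Snail1 KO minus WT, of the analysed genes of 4 lists (points, spread sideways for visibility), with the median of each list (bar), the middle 50% of all analysed genes (grey band) and 2-fold dashed. The members' median of -0.10 lies inside the band, and that of the smooth muscle contractile genes, -0.86, below it.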

How the data were processed

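The values the authors deposited are on the log2 scale, 1 for each probe set on each array, and the submitters' processing notes name RMA and the affy package, without versions. RMA fits both arrays to 1 distribution, so a change of total mRNA cannot be seen, and differences of dim probe sets are compressed. No detection calls were used, so signal over background is not known, and the number of arrays limits the precision.

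GEO's platform annotation, which can hold old names, gave 34945 of 45101 probe sets a single gene symbol, 932 several and 9160 none here; 64 are controls. Each gene was represented by its brightest probe set by mean of the 2 arrays and analysed if that mean exceeded the 40th percentile of probe sets other than controls. Differences are Snail1 KO minus WT, counted by size at 2-fold and 1.5-fold, with no test. The counting was tested on simulated data. Calculations used Python 3.11.15, pandas 2.3.3 and numpy 2.4.6. All members are named, together with markers and, of each other list, genes past 2-fold or the 3 with the largest difference; genes named beyond this were chosen after their values were seen. Members and lists were chosen with earlier results of these data known. Promoter sequences are from RefSeq.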

Additional observations from a re-analysis of the deposited data

Results flagged for a closer look

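The array carries 4 probe sets for Cre recombinase of phage P1 among its controls, outside the genes compared. All were brighter in Snail1 KO, by 8.04 to 10.17 log2 units, a signal above the level of the control sample. The smallest of these differences had values of 3.83 on the WT array and 11.87 on the Snail1 KO array.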

How the results depend on the processing

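No array could be left out, and no paired analysis was possible because each group holds 1 array. At 1.5-fold in place of 2-fold, 6 members, 7 smooth muscle contractile genes and 783 of all genes were lower, and 652 of all genes higher. Without probe sets that can bind several transcripts (suffixes _s_at, _x_at and _a_at), 0 of 28 members were at least 2-fold lower, because Fhl2 and both brighter Coro1a probe sets carry a suffix, and the contractile count was 2 of 6. When a gene's probe sets were averaged, the members' median was -0.027 in place of -0.10, with 22 lower in place of 26 and 3 at least 2-fold lower in place of 2. Under the same setting the contractile count was 2 with a median of -0.67, 77 genes were at least 2-fold higher, the median of the wider actin set had the opposite sign, at -0.015, Pdlim5 was past 2-fold at -1.06, and Coro1a differed by -1.12. When the filter was raised to the 60th percentile, the contractile median was -1.05 and that of the WAVE and Arp2/3 genes had the opposite sign, at 0.028. With the least changed analysed probe set of each gene, 0 where signs differed, an alternative chosen after seeing the data as were those of the 2 wider lists, 15 members were lower with a median of 0.00, the contractile median was -0.74 and 81 genes were at least 2-fold higher. Of 213 values of single members under the alternatives, 208 moved by less than 0.40 log2 units, but many of these could not move that far. A change of filter leaves a member's value as it is, and centring on the median of all analysed genes shifts every value by 0.0083. With averaged probe sets 36 of 37 moved by less than 0.40, and with the least changed probe set 36 of 37. Without probe sets that can bind several transcripts, 25 of 28 did. Where measured above the filter level, none of the 6 members past 1.5-fold changed sign, but not all kept that size. With averaged probe sets Zyx fell short of it, at -0.54, and Tagln2 passed it, at -0.62. With the least changed probe set Zyx and Pdlim5 fell short, at -0.36 and -0.50. Without probe sets that can bind several transcripts, Fhl2 had none left, and that of Coro1a lay under the filter level and differed by 0.23. In that setting Cald1 passed 1.5-fold, at -0.61, as did Coro1c in the other direction, at 0.97.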
